A study of Mus musculus with 4 samples.

Results

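DEAD and DEAH box proteins are RNA helicases, enzymes that use ATP to unwind RNA duplexes or to strip proteins from RNA, and they are named after the amino acid letters of a conserved ATP-binding motif. Members act at nearly every step of RNA metabolism. In the nucleolus they release snoRNAs and remodel pre-rRNA during ribosome assembly, in the spliceosome they drive each rearrangement, and in the cytoplasm they act on mRNA leaders, on mRNA export and on mRNA storage and decay. Their footprints were examined here in mouse embryonic fibroblasts, the primary connective tissue cells of mouse embryos. The members were all rows of the deposited table whose gene symbol starts with Ddx or Dhx followed by a digit, which gave 34 of 4878 genes. They were sorted by known role into 11 nucleolar helicases of ribosome assembly, 10 splicing helicases, 4 cytoplasmic helicases of mRNA, 4 nuclear helicases of transcription and RNA-protein assembly, 2 mitochondrial helicases, 1 antiviral helicase (Dhx58), 1 helicase of genome maintenance (Ddx11) and 1 of unsettled role (Ddx59). Dhx15, Dhx29 and Dhx36, also on these role lists, were not analysed here.

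Cells of passages 5 to 8 were transfected with a negative control siRNA or with the siRNA Si-eIF1A (X+18) against eIF1A, the initiation factor that takes part in scanning and in the choice of the start codon. Each group held 2 ribosome profiling libraries. The assay sequences footprints, the RNA fragments that a ribosome shields from RNase I, and the table counts them as normalized read numbers per gene on the 5' UTR (the leader of the mRNA) and on the coding sequence. Whether the replicates were separate cultures is not said in the labels, so p-values measure only how far these libraries lie apart, and that spread may be technical. RNA levels were not used, so less translation, less mRNA per cell and fewer cells of a type cannot be told apart in a footprint level. The genes for eIF1A were not analysed here, so the knockdown itself could not be checked.

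The listed genes held 547916 to 617663 reads in the controls and 280649 to 458191 in the knockdown libraries. The 34 helicase genes held 7149 and 5949 coding reads in the controls, and 4287 and 2622 in the knockdown libraries. Here and below, values are given in the order of replicates 1 and 2. The 5' UTR share of all reads was 11.6% and 13.7% in the controls and 19.95% and 32.4% in the knockdown libraries. Of 16 fibroblast markers 6 were in the table, Vim, Sparc, Fn1, Col5a1, Fbln2 and S100a4. Their summed normalized coding reads were 5850.4 and 7945 in the controls and 4695 and 3687 in the knockdown libraries. Col5a1, Fbln2 and S100a4 fell, while Sparc (log2 -0.04) and Vim (0.38) did not pass the test used below. Fn1, which made up most of the sum, had 3032 and 4881 against 2209 and 2399 and did not pass either (log2 -0.74). The part of the marker shift in the helicase values was not tested. None of the epithelial, leukocyte and endothelial markers looked for was among the listed genes.

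Promoter letters were read for what the helicases share beyond their names. RefSeq promoters (GRCm38.p6, 250 bases before to 50 after the gene start) matched 28 of the 34 genes, a gene with several starts counting if any of its promoters held a motif, and 11 motifs were looked for on both strands. The letters CGGAAGT, the core of sites bound by ETS transcription factors, were chosen from these for display after the counts were seen. They occurred in 14 of the 28 genes (50%), against 684 of 3831 listed genes (17.9%) and 6.42% of all 32851 promoters. No test was made of this choice. The motif stood in promoters of helicases that rose in coding footprints (3 of 5 matched, Ddx18, Ddx21 and Ddx27) and of helicases that fell (2 of 4 matched, Ddx17 and Dhx40). It stood as well in promoters of helicases that were not called, among them Ddx20, Ddx50, Dhx8 and Dhx9. Of the nucleolar helicases 7 of 11 held it. A link between the motif and the change in footprints was not tested. The windows below show it upstream of Ddx21, Ddx27 and Ddx17, with the motif in capitals and each window turned so that the motif reads 5' to 3'. The motif's farthest base lies 48 and 24 bases before the Ddx21 start, 86 before that of Ddx27 and 228 before the start that the promoter table gives for Ddx17. Counted from the end of the Ddx17 gene span given below, that base lies 205 bases upstream. A further Ddx27 match at the start itself and the Dhx40 match, 11 bases after the promoter table's start, run into the transcript and are not printed. Ddx18 has no window because the one round its match ran past the promoter sequence. In the order printed, the windows lie at chr10:62602330-62602356, chr10:62602306-62602332, chr2:167015217-167015243 and chr15:79546953-79546979. The printed strand is plus for the farther Ddx21 window and for Ddx27, and minus for the nearer Ddx21 window and for Ddx17.
Ddx21, farther: gtgcatccggCGGAAGTagcgtgtacc
Ddx21, nearer: cactccgctgCGGAAGTgacgaatagg
Ddx27: cgcccccgagCGGAAGTgacgtgaagc
Ddx17: cccagagaccCGGAAGTctgactaagg

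Of the other 10 motifs, 2 are near-copies of this ETS core and overlap it. CGGAAG was in 75% of the matched helicases, 39.96% of listed genes and 16.9% of all promoters, and CCGGAAG in 50%, 24.2% and 8.86%. The E-box CACGTG, bound by Myc, was in 4 of 28 helicases (14.3%), 13.5% of listed genes and 7.15% of all promoters, and Dhx33 was the 1 nucleolar helicase of 11 that held it. GGGCGG was in 71.4%, 75.2% and 35.7%, CCAAT in 39.3%, 44.0% and 37.4%, and TATAAA in 10.7%, 8.07% and 13.6%. The NRF1 site was in 1 helicase (3.57%), 2.45% of listed genes and 0.971% of all promoters. The ZNF143 site, the ATF4 site TGATGNAA and a CG-rich palindrome of active promoters were in 0 of 28 helicases. Among listed genes they were in 2.79%, 2.77% and 1.49%, and among all promoters in 0.950%, 3.97% and 0.466%. A match says only that these letters are there.

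Coding footprints rose in 4 nucleolar helicases, 2 splicing helicases and the antiviral Dhx58. They fell in the nuclear helicases Ddx5 and Ddx17, in the splicing helicase Dhx40 and in the cytoplasmic Dhx57. All 34 genes passed the minimum mean of 10 normalized coding reads. By limma with Benjamini-Hochberg adjustment over all 4619 genes tested (threshold 0.05), 7 rose (20.6%) and 4 fell (11.8%), against 10.6% higher and 18.7% lower among all genes tested. In total 32.4% of the helicases changed and 29.3% of all genes, so the family was called about as often as genes at large. The median log2 change of the 34 was 0.14, where that of all genes was -0.16. With TMM scaling, which sets libraries to equal typical levels, the median of all genes was 0.01, and 8 helicases rose and 4 fell. The split was 8 and 2 with quantile normalization and 12 and 4 with edgeR on recovered reads, which also called Ddx20, Ddx24, Dhx33, Dhx35 and Dhx37 higher. Calls among all 4619 genes also shifted, to 789 higher and 764 lower with TMM scaling. They were 695 and 694 with quantile normalization and 900 and 812 with edgeR, against 488 and 864 in the main setting. In 14 helicases both knockdown values exceeded both controls, and in 9 they were below both, against 26% and 40.1% of all genes tested.

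**Figure D1:**
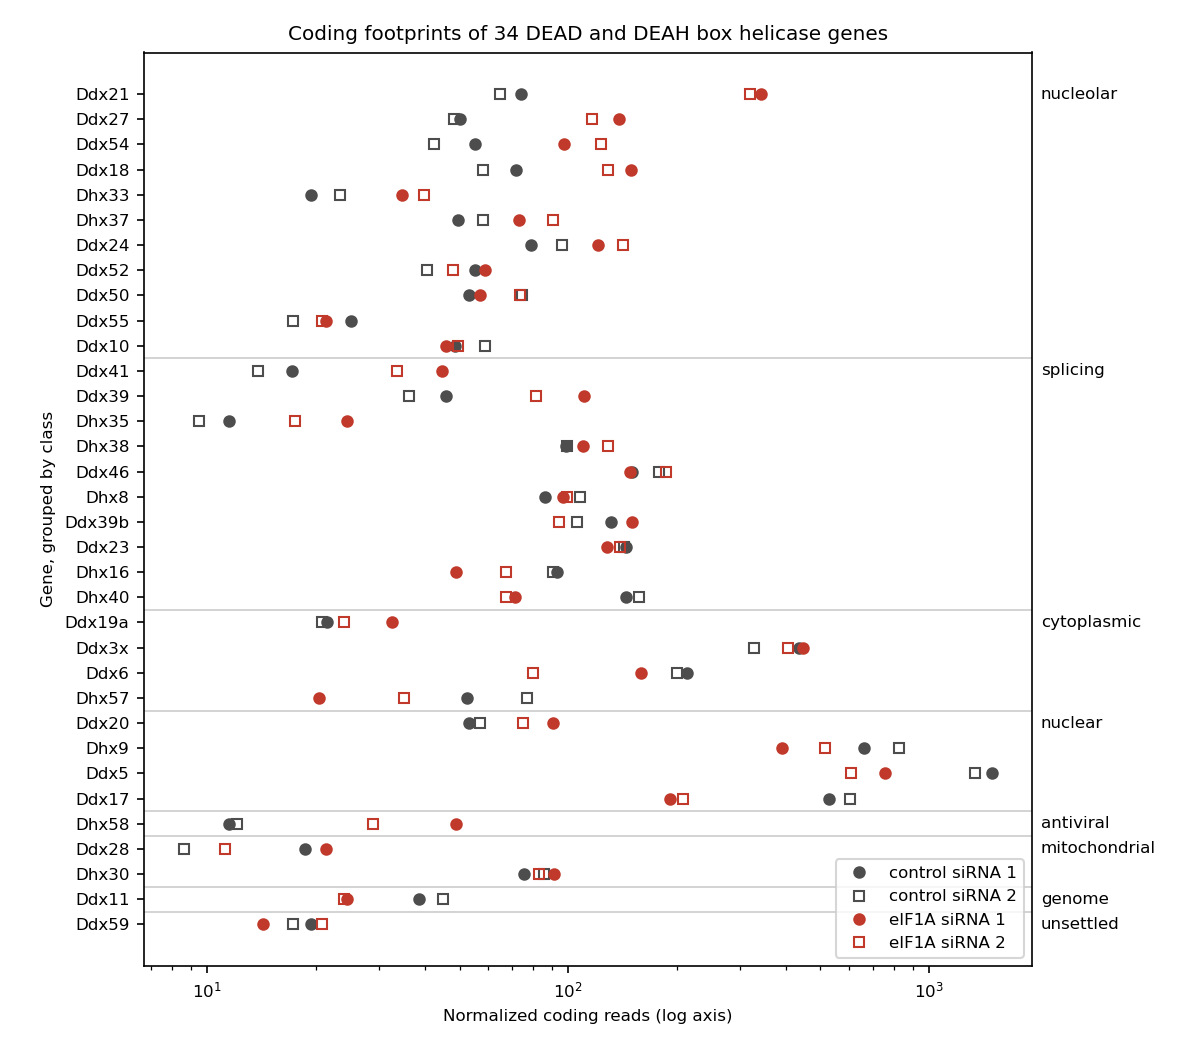
Normalized coding reads (horizontal log axis) of 34 helicase genes, grouped by class, with 1 symbol per library (grey, control siRNA; red, eIF1A siRNA; circles, replicate 1; open squares, replicate 2). The knockdown values of Ddx21 (342 and 319) lie right of its controls (73.8 and 64.8), and those of Ddx17 (191 and 207) lie left of its controls (528 and 602).

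Nucleolar helicases rose or did not pass, and none fell. Their summed normalized coding reads were 580.4 and 582 in the controls and 1139 and 1152 in the knockdown libraries. Ddx21 alone held 73.8 and 64.8 of these in the controls and 342 and 319 in the knockdown libraries, so much of the rise of the sum is its own. Of 11 members 4 rose and 7 did not pass, with a median log2 change of 0.60. The groups overlapped in 4 of the 11, and in the other 7 both knockdown values were the higher ones. Among all genes tested 10.6% rose and 18.7% fell, and in 26% both knockdown values were the higher ones.

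Ddx21, which acts in rRNA transcription and processing (chromosome 10, 62580247 to 62602298, GRCm38.p6), had 73.8 and 64.8 normalized coding reads in the controls and 342 and 319 in the knockdown libraries. Its groups were far apart, and the spread within each was small. The mean rose from 69.3 ± 6.35 to 330.5 ± 15.9 (SD, n = 2), or by 2.24 ± 0.28 on the log2 scale (SE, limma adjusted p = 8.03e-05). It was the only helicase that stayed called in all 14 alternative settings, where its log2 change ran from 2.15 to 2.48.

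Ddx50, the paralog of Ddx21 and its neighbour (chromosome 10, 62615792 to 62658764), did not pass the test. It had 53.0 and 74.3 normalized coding reads in the controls and 57.0 and 73.4 in the knockdown libraries, which overlap. Its log2 change was 0.042, with a 95% interval from -0.64 to 0.72 (limma adjusted p = 0.939). Ddx21 had 1.39 and 0.872 times the coding reads of Ddx50 in the controls and 6.0 and 4.35 times in the knockdown libraries. The difference between the paralogs was not tested.

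The other nucleolar rises were smaller. Ddx27, which acts in pre-rRNA processing (chromosome 2, 167015313 to 167034945), had 50.2 and 48.4 normalized coding reads in the controls and 138 and 117 in the knockdown libraries (log2 1.35 ± 0.30 SE, limma adjusted p = 0.00375). Ddx54, a factor of the large ribosomal subunit (chromosome 5, 120613082 to 120628592), had 55.2 and 42.4 against 97.6 and 123 (log2 1.16 ± 0.31 SE, limma adjusted p = 0.0112). Ddx18, also of large subunit assembly (chromosome 1, 121553835 to 121567980), had 71.7 and 57.9 against 149.5 and 129 (log2 1.10 ± 0.30 SE, limma adjusted p = 0.0121). In each of these the knockdown libraries lay above both controls.

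Besides Ddx50, 6 nucleolar helicases did not pass. Dhx33 (log2 0.78), Dhx37 of small subunit assembly (0.60) and Ddx24 of the large subunit (0.59) had knockdown libraries above both controls, with limma adjusted p of 0.115, 0.154 and 0.143. Ddx52, Ddx55 and Ddx10 lay at 0.16, 0.014 and -0.17 with overlapping groups.

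Splicing helicases as a group had summed values of 924 and 941 normalized coding reads in the controls and 934 and 915 in the knockdown libraries. Of 10 members 2 rose, 1 fell and 7 did not pass, and the median log2 change was 0.023. That is 20% higher and 10% lower, against 10.6% and 18.7% of all genes tested, a difference that was not tested. In total 30% were called, against 29.3% of all genes. The members that did not pass include helicases of the core splicing steps. Ddx46, which acts when the U2 snRNP joins the branch site, had 150.5 and 178 against 148 and 187 (log2 0.025, 95% interval -0.59 to 0.64). Ddx23, which helps to release the U1 snRNP, had 145 and 143 against 128 and 139 (log2 -0.11, 95% interval -0.71 to 0.49). Dhx8, which frees the spliced mRNA, lay at 0.021 (95% interval -0.60 to 0.65), and Dhx38, of the second splicing step, at 0.26 (-0.35 to 0.88). Dhx16, which remodels the spliceosome before the first step, had 93.1 and 90.8 against 48.8 and 67.0, with both knockdown libraries below the controls (log2 -0.67 ± 0.31 SE, limma adjusted p = 0.111). Without knockdown replicate 2 it passed (log2 -0.90, adjusted p = 0.0292).

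The paralogs Ddx39 and Ddx39b, which both load onto mRNA for splicing and export, are given side by side. Ddx39, now named Ddx39a (chromosome 8, 83715177 to 83726904), had 45.9 and 36.3 normalized coding reads in the controls and 111 and 81.4 in the knockdown libraries, higher by 1.199 ± 0.32 on the log2 scale (SE, limma adjusted p = 0.0110). Ddx39b (chromosome 17, 35241746 to 35253707) had 131 and 105 against 151 and 94.2, which overlap (log2 0.018, 95% interval -0.65 to 0.68). Ddx39 had 0.3497 and 0.344 times the coding reads of Ddx39b in the controls and 0.736 and 0.864 times in the knockdown libraries, and this difference was not tested. Their sequences are alike, so reads may be shared between them.

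Ddx41 and Dhx40 moved in opposite directions. Ddx41 (chromosome 13, 55530410 to 55536658), found in the catalytic spliceosome and also known as a sensor of foreign DNA, rose from 17.2 and 13.8 normalized coding reads in the controls to 44.7 and 33.5 (log2 1.27 ± 0.38 SE, limma adjusted p = 0.0203). Dhx40 (chromosome 11, 86768849 to 86807877) fell from 145 and 157 to 71.2 and 67.0, at a log2 difference of -1.12 ± 0.29 (SE, limma adjusted p = 0.00950). Both of its knockdown libraries were under the lower control. Dhx35, another spliceosome helicase, had 11.5 and 9.51 against 24.4 and 17.6 and did not pass (log2 0.92, limma adjusted p = 0.147).

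The nuclear helicases Ddx17 and Ddx5, paralogs that act as partners of transcription factors, splicing and miRNA processing, both lost coding footprints. Ddx17 (chromosome 15, 79527696 to 79546764) had 528 and 602 normalized coding reads in the controls and 191 and 207 in the knockdown libraries. The mean fell from 565 ± 52.6 to 199 ± 11.5 (SD, n = 2), at a log2 difference of -1.50 ± 0.28 (SE, limma adjusted p = 0.00131). Ddx5 (chromosome 11, 106780355 to 106789185) had 1489.7 and 1341 against 755 and 607. It fell from 1416 ± 105 to 681 ± 105 (log2 -1.06 ± 0.30 SE, limma adjusted p = 0.0144). Its call ended with quantile normalization (log2 -0.61, adjusted p = 0.131).

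Dhx9, an abundant nuclear helicase of double-stranded RNA, lay in the same direction with 661 and 824 against 391 and 516, and did not pass (log2 -0.72 ± 0.30 SE, limma adjusted p = 0.0791). Ddx20, the helicase of the SMN complex that assembles snRNPs, had 53.0 and 57.0 against 90.5 and 75.0 and did not pass either (log2 0.57, limma adjusted p = 0.166). In all 4 nuclear helicases the groups did not overlap, with Ddx20 above its controls and the other 3 below. Among all genes tested 26% lay above and 40.1% below.

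The cytoplasmic helicases gave 1 fall and 3 genes that did not pass, with a median log2 change of -0.35. Among all genes tested 18.7% fell. Ddx3x, which aids initiation on structured leaders (chromosome X, 13280496 to 13293988), had 436 and 328 normalized coding reads in the controls and 449 and 407 in the knockdown libraries. Its groups overlapped, and its log2 change was 0.18 with a 95% interval from -0.44 to 0.79 (limma adjusted p = 0.680). Ddx6, which holds mRNA in repressed particles and promotes decapping (chromosome 9, 44602983 to 44640731), had 213 and 201 against 159 and 79.8. Both knockdown libraries were below the controls but far from each other (log2 -0.87 ± 0.33 SE, limma adjusted p = 0.0578). The value rests on which knockdown library is kept, with a log2 change of -1.36 without replicate 1 (adjusted p = 0.000763) and -0.38 without replicate 2 (adjusted p = 0.414). It also passed with a minimum mean of 50 (adjusted p = 0.0228). Dhx57 (chromosome 17, 80238304 to 80290476) fell from 52.3 and 76.9 to 20.3 and 35.1 (log2 -1.22 ± 0.36 SE, limma adjusted p = 0.0203). This call ended with quantile normalization (adjusted p = 0.0653) and with DESeq2 (adjusted p = 0.115). Ddx19a, which acts in mRNA export at the nuclear pore, had 21.5 and 20.7 against 32.5 and 23.9 (log2 0.39, limma adjusted p = 0.467). It has a close copy, Ddx19b, so its reads are uncertain.

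Among the remaining helicases only Dhx58 passed. Dhx58, the RIG-I-like receptor LGP2 of antiviral defence (chromosome 11, 100694884 to 100704271), rose from 11.5 and 12.1 normalized coding reads to 48.8 and 28.7, at a log2 difference of 1.59 ± 0.41 (SE, limma adjusted p = 0.00963). Its control values rest on 16 and 14 reads. Ddx11, a DNA helicase of sister chromatid cohesion, had 38.7 and 44.9 against 24.4 and 23.9 and did not pass (log2 -0.76, limma adjusted p = 0.109). The mitochondrial helicases Dhx30 (log2 0.12, 95% interval -0.51 to 0.75) and Ddx28 (0.26, -0.85 to 1.38) had overlapping groups, as had Ddx59 (-0.083, -0.999 to 0.83).

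Leaving out 1 library at a time kept the direction of all 11 called helicases, but leaving out a control ended most calls. Ddx21 and Ddx17 stayed called without control replicate 1, and Ddx21 alone without control replicate 2 (adjusted p = 0.0491). The lost calls had adjusted p from 0.0576 (Ddx5) to 0.117 without control replicate 1, and from 0.0813 (Ddx17) to 0.341 (Dhx57) without control replicate 2. Calls among all genes fell too, to 86 higher and 166 lower without control replicate 1 and to 12 and 14 without control replicate 2. All 11 stayed called without knockdown replicate 1, and 10 without knockdown replicate 2, where Ddx5 did not (log2 -0.90, adjusted p = 0.112).

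**Figure D2:**
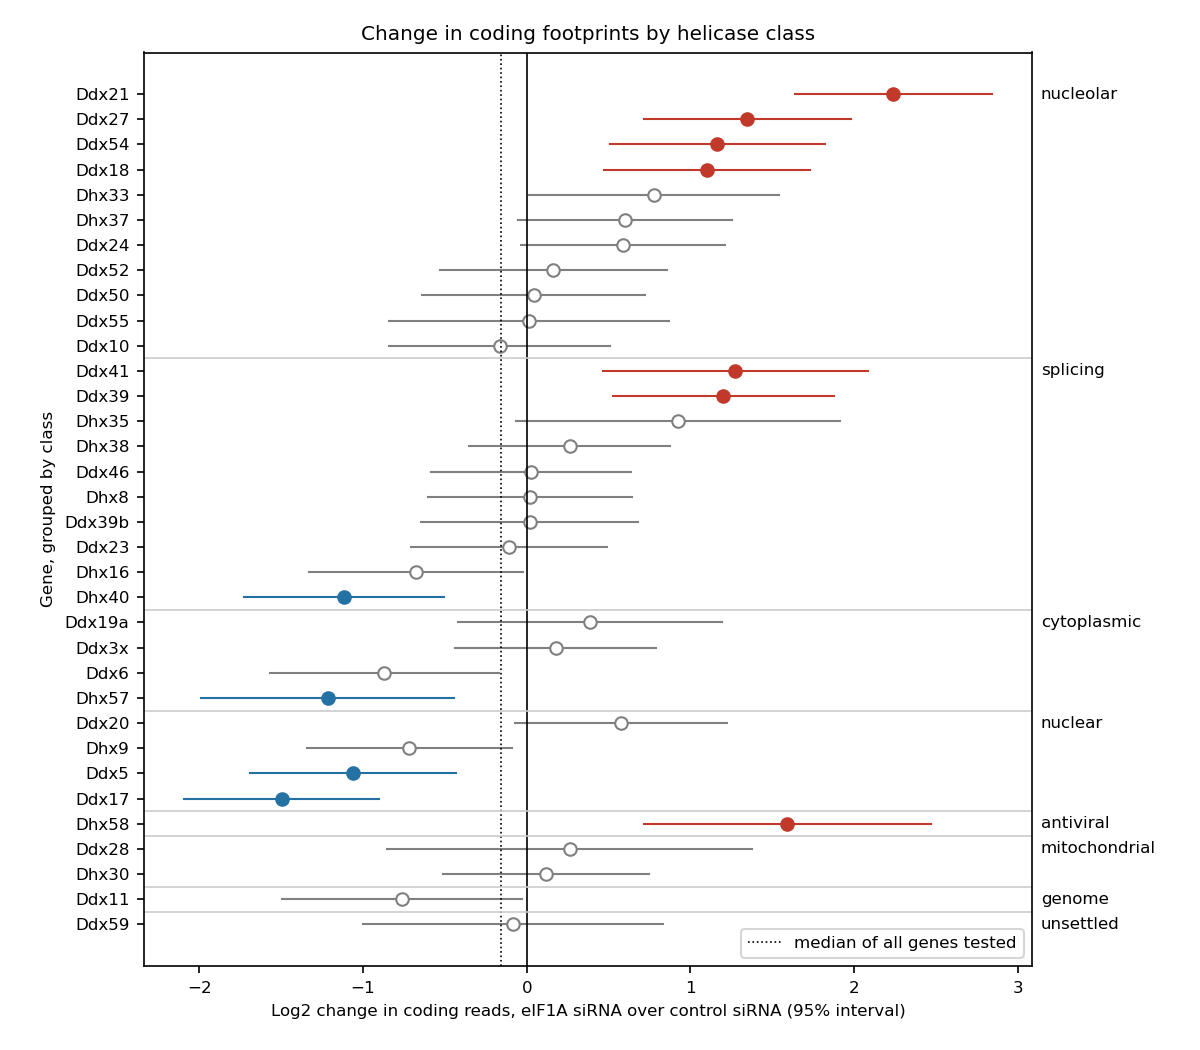
Log2 change in coding reads (horizontal axis, eIF1A siRNA over control siRNA) of each helicase with its 95% interval from limma, grouped by class (red, higher; blue, lower; open grey, not past the threshold; dotted line, median of all genes tested). Ddx21 lies highest at 2.24 and Ddx17 lowest at -1.50.

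RNA helicases with other names gave 1 rise and 1 fall among 14 tested of 23 on the list (14.3% called, against 29.3% of all genes), with a median log2 change of -0.05. Eif4a1, the helicase of the cap-binding complex, had 362 and 244 normalized coding reads in the controls and 1095 and 431 in the knockdown libraries (log2 1.21 ± 0.38 SE, limma adjusted p = 0.0258). Skiv2l, the helicase that feeds mRNA to the cytoplasmic exosome, fell from 189 and 256 to 72.2 and 60.7 (log2 -1.72 ± 0.30 SE, limma adjusted p = 0.000764). Snrnp200, the helicase that unwinds U4 from U6 snRNA, had 523 and 683 against 575 and 571 and did not pass (log2 -0.06).

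Partners of helicases gave 1 rise and 2 falls among 28 tested of 44 on the list (10.7% called, against the same 29.3%), with a median of 0.13. Pdcd4, the inhibitor that binds eIF4A, fell from 80.3 and 48.4 normalized coding reads to 8.14 and 19.2 (log2 -2.22 ± 0.43 SE, limma adjusted p = 0.00156). Cnot1, the scaffold of the deadenylase complex to which Ddx6 binds, fell from 513 and 770.1 to 275 and 330.4 (log2 -1.06 ± 0.30 SE, limma adjusted p = 0.0156). Gemin5, a partner of Ddx20 in the SMN complex, rose from 53.0 and 78.7 to 128 and 109 (log2 0.86 ± 0.31 SE, limma adjusted p = 0.0481).

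Leader footprints of the helicases were few in the controls and passed the test on some of the genes. In 13 of the 34 genes the 5' UTR stood at 1 read, the lowest value of the table, in both controls, and in 7 it stood there in all 4 libraries (Ddx20, Ddx28, Ddx41, Ddx50, Ddx54, Dhx37 and Dhx8). No nucleolar helicase reached the minimum mean of 10 normalized 5' UTR reads, and 8 of the 11 were at 1 read in both controls. Ddx21 had 1 read in each control and 9 and 18 reads in the knockdown libraries.

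In all, 12 helicases reached the minimum for the 5' UTR. By limma 8 rose and 1 fell, against 44% higher and 2.81% lower among the 2101 genes tested, whose median log2 change was 1.09. The median of the 12 was 1.55, and in 10 of them both knockdown values exceeded both controls, against 67.4% of all genes. Ddx23, Ddx39, Dhx16, Dhx30 and Dhx38 had control means under that minimum and passed it through the knockdown libraries, so these counts describe the helicases that were measured and support nothing further. For these 5 genes the values are given with no p, since a gene that enters the test through its high group had to differ. The 5' UTR test gave all genes of a level the same variance, so small p-values rest on that shared variance. Where the 5' UTR reads were scaled on themselves, the overall rise was removed and fewer helicases were called. With quantile normalization 3 were higher and 1 lower. Fewer were also called with edgeR and DESeq2, and Ddx6 alone kept its call with DESeq2. The counts of all genes were not set beside those of edgeR and DESeq2, so their counts are not given. With TMM factors from the coding reads 6 rose and none fell. Among the 2101 genes tested, 684 rose and 21 fell with TMM factors, and 452 rose and 375 fell with quantile normalization.

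Ddx6 was the helicase whose leader footprints fell. It had 142 and 181 normalized 5' UTR reads in the controls and 50.9 and 110.1 in the knockdown libraries, so that all knockdown values were below the controls (log2 -1.09 ± 0.45 SE, limma adjusted p = 0.0358). The call ended with TMM factors and without a filter on low values (adjusted p = 0.253 and 0.0638). Without knockdown replicate 1 its log2 change was -0.54 (adjusted p = 0.239), and without knockdown replicate 2 it was -1.64. Without control replicate 1 or 2 the adjusted p was 0.312 and 0.398.

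Leader values of Ddx17 and Ddx5 were higher in both knockdown libraries, while their coding values were lower. Ddx17 had 58.0 and 91.6 normalized 5' UTR reads in the controls and 158 and 196 in the knockdown libraries (log2 1.26 ± 0.45 SE, limma adjusted p = 0.0145). Ddx5 had 85.3 and 115 against 269.5 and 391 (log2 1.70 ± 0.43 SE, limma adjusted p = 0.000510). The Ddx17 call ended with TMM factors (log2 1.43, adjusted p = 0.0695), quantile normalization (0.29, 0.264), edgeR (0.16, 0.582) and DESeq2 (0.12, 0.838), and without control replicate 1 (0.93, 0.438) or 2 (1.58, 0.140). That of Ddx5 ended with DESeq2 (0.56, 0.130) and without control replicate 1 (1.49, 0.172) or 2 (1.92, 0.0605), and its log2 change was 0.75 with quantile normalization and 0.60 with edgeR. The 5' UTR held 9.90% (95% Wilson interval 8.04 to 12.1) and 13.2% (11.0 to 15.7) of the Ddx17 reads in the controls, and 45.2% (40.005 to 50.5) and 48.6% (42.5 to 54.7) in the knockdown libraries. For Ddx5 it was 5.41% (4.54 to 6.44) and 7.89% (6.70 to 9.28) against 26.3% (23.7 to 29.1) and 39.2% (35.4 to 43.1). The intervals cover counting error only, and in neither gene did those of the groups overlap.

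Dhx30 and Dhx16 had few leader footprints in the controls and more in both knockdown libraries. Dhx30, a helicase of mitochondrial RNA granules (chromosome 9, 110084319 to 110117616), had 1.43 and 4.32 normalized 5' UTR reads in the controls, which are 2 and 5 reads, and 18.3 and 38.3 in the knockdown libraries (log2 2.94 ± 0.66 SE). Dhx16 (chromosome 17, 35879764 to 35892670) had 2.87 and 3.46, which are 4 reads each, against 14.2 and 22.3 (log2 2.18 ± 0.69 SE).

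Among the other leaders, those of Ddx46 and Ddx3x rose. Ddx46 had 17.9 and 12.1 normalized 5' UTR reads against 49.8 and 49.5 (log2 1.69, limma adjusted p = 0.00435), a call that ended with quantile normalization, edgeR and DESeq2 (log2 0.71, 0.61 and 0.58). Ddx39 had 3.58 and 6.91 against 16.3 and 38.3 (log2 2.11), and Ddx23 had 3.58 and 10.4 against 12.2 and 39.9 (log2 1.69). Ddx3x had 10.7 and 34.6 against 51.9 and 55.9 (log2 1.42, limma adjusted p = 0.0145), and without control replicate 1 its log2 change was 0.62 (adjusted p = 0.646), and without knockdown replicate 2 it was 1.37 (adjusted p = 0.0615). With quantile normalization, edgeR and DESeq2 the Ddx3x value was 0.45, 0.23 and 0.20, and its call ended there and with TMM factors (adjusted p = 0.0588). Dhx9 (0.50), Dhx38 (0.86) and Ddx39b (0.96) did not pass, though Dhx9 (1.23, adjusted p = 0.00997) and Ddx39b (1.21, adjusted p = 0.0120) did without knockdown replicate 1. Without control replicate 1 none of the 9 helicases called on the 5' UTR stayed called. Without control replicate 2 the log2 change of Ddx3x was 2.22. Ddx39 (2.51) and Dhx30 (3.50) entered the test through their knockdown libraries, so their values in that fit support nothing further.

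**Figure D3:**
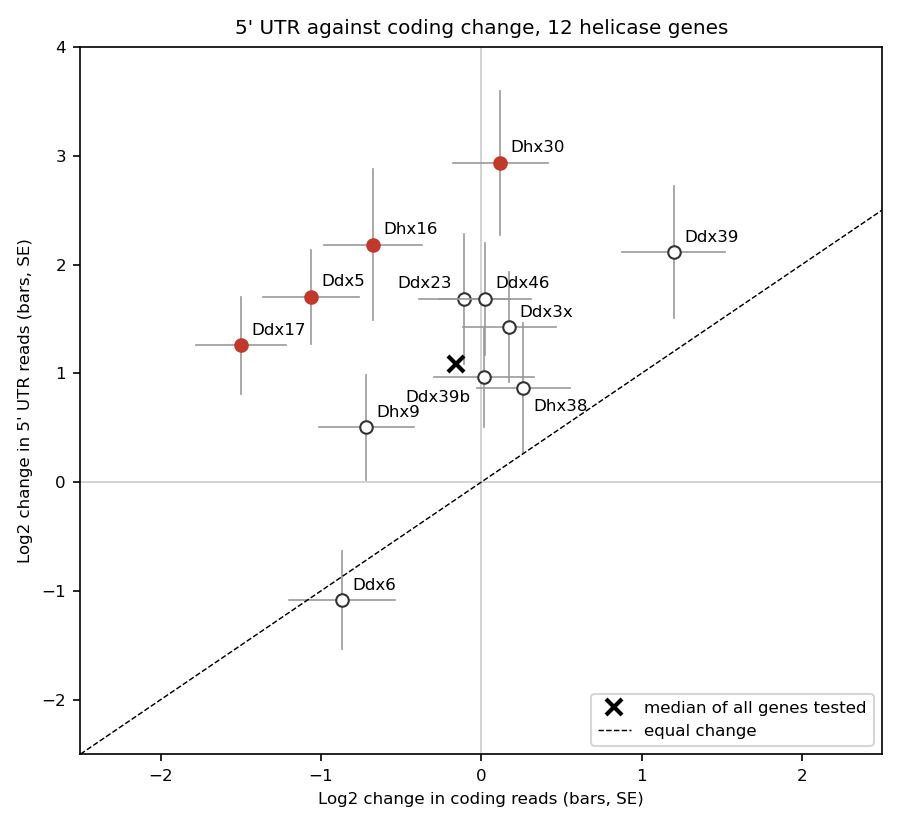
Log2 change in 5' UTR reads (vertical axis) against log2 change in coding reads (horizontal axis) of the 12 helicases with a mean of at least 10 in both regions, with bars for the SE and a cross at the median of all genes tested. Filled red dots mark Ddx17, Ddx5, Dhx16 and Dhx30, called on the ratio (the last pair entered that test through the knockdown libraries), and Ddx6 is the lowest at -1.09 on the 5' UTR.

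Leader reads per coding read, as a ratio, rose in 4 of these 12 helicases and fell in none, against 19.4% higher and 0.0524% lower among 1907 genes tested. In 9 of the 12 both knockdown ratios exceeded both controls, against 63.9% of all genes. The log2 change of the ratio was 2.77 ± 0.77 (SE, limma adjusted p = 0.00617) for Ddx5 and 2.76 ± 0.79 (adjusted p = 0.00809) for Ddx17. As on the 5' UTR, the ratio test gave all genes of a level the same variance. These SEs and p-values rest on that shared variance. The others called were Dhx16 (2.86 ± 0.75 SE) and Dhx30 (2.82 ± 0.75 SE), which entered this test through their knockdown libraries, so their calls and the count of 4 support nothing further. The median of all genes was 1.23. All 4 calls ended with quantile normalization, and without control replicate 1 or 2, where the adjusted p was 0.744 and 0.483 for each. The log2 changes without 1 control ran from 2.35 to 3.29. Knockdown replicate 2 had 32.4% of all reads on the 5' UTR, against 11.6% and 13.7% in the controls. Ratio calls with that library alone in its group are therefore not counted here.

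Ddx6 and Ddx39b had leaders with many footprints in every library. The 5' UTR held 40% (95% Wilson interval 35.8 to 44.4) and 47.4% (42.8 to 52.1) of the Ddx6 reads in the controls, and 24.3% (18.9 to 30.6) and 58.0% (49.0 to 66.5) in the knockdown libraries. The knockdown libraries lay on opposite sides of the controls, and the ratio did not pass (log2 -0.22, 95% interval -1.78 to 1.35). For Ddx39b the shares were 30.2% and 46.0% in the controls and 43.9% and 63.8% in the knockdown libraries, which overlap. Genes for snoRNAs and miRNAs lie within the span of Ddx39b, and its reads could not be told from theirs where they overlap.

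**Figure D4:**
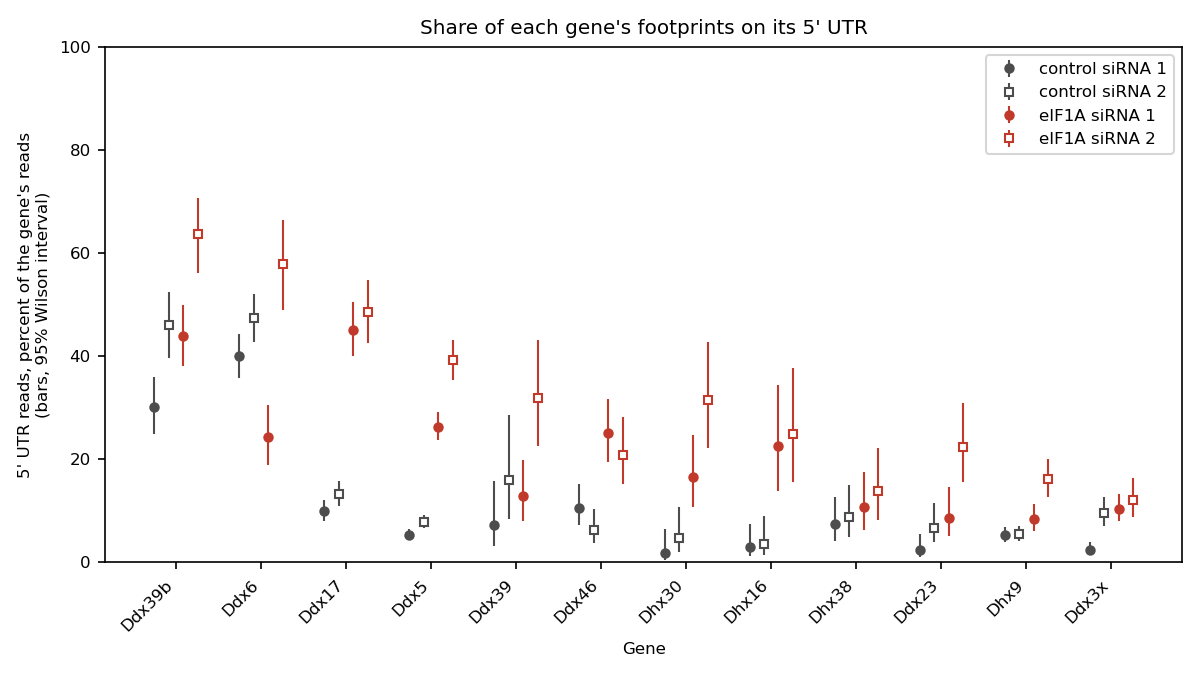
Share of each gene's footprints that lay on its 5' UTR (vertical axis, percent, bars for the 95% Wilson interval) in each of 4 libraries for the 12 helicases with enough 5' UTR reads. Ddx17 goes from 9.90% and 13.2% in the controls to 45.2% and 48.6% in the knockdown libraries, while the shares of Ddx6 in the knockdown libraries, 24.3% and 58.0%, lie on either side of its controls.

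Some of the changed genes share their span with another gene in the RefSeq table. Ddx17 overlaps Kdelr3, Ddx5 overlaps Cep95 and a miRNA, Ddx39 overlaps Adgre5 and a miRNA, Ddx54 overlaps Cfap73, and Dhx57 overlaps Morn2. The sources used here do not say whether counting used the strand, so reads in such overlaps are uncertain.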

How the data were processed

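Per the submitters' processing notes, cutadapt, Bowtie, TopHat2, HTSeq and DESeq2 were used with build mm10, and neither versions nor order are named. The authors deposited a signal, the normalized read number of each gene on the 5' UTR and on the coding region. All values (100%) came out as whole reads, to within 0.001 reads, once divided by the worth of a single read, which was 0.717 and 0.864 for the controls and 1.02 and 1.60 for the knockdown libraries. The lowest value was 1 read, so 1 read may stand for none.

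Values were tested as log2(value + 1) with limma 3.58.1 in R 4.3.3 (empirical Bayes with trend, Benjamini-Hochberg over all genes, threshold 0.05), for genes with a mean of at least 10, both regions for the ratio. Log2 changes understate the change of genes with few reads. With 2 against 2 libraries an exact permutation test cannot go below 0.333, so no single value has one. Alternatives were other pseudocounts, filters and scalings, each library left out, a replicate block, TMM factors from the coding reads, 1 read subtracted, and count tests on recovered reads with edgeR 4.0.16, which called 900 genes higher and 812 lower for coding reads, and DESeq2 1.42.0. On simulated coding reads (4571 genes) 16.3% of 2-fold and 86.4% of 4-fold changes were recovered. It was 27.1% and 83.8% for the 5' UTR (2064 genes), and 0% and 15.2% for the ratio (1854 genes). The simulation set the same spread for all genes and no overall shift, so its rates need not hold for these data. A ratio that did not pass is not read as unchanged.

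The members and lists were chosen with earlier results of these data known. Values are given for members past the threshold in any measure, for the member with the most coding reads of each class and for Ddx3x and Ddx6. Other members, such as paralogs and those near the threshold, were given in detail after their values were seen, and the motifs were chosen likewise. Up to 4 genes of each other list were taken, those past the threshold, and Snrnp200 was added after its values were seen. Gene positions and promoters are from RefSeq (GRCm38.p6). Ddx39 was matched by an older name.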

Additional observations from a re-analysis of the deposited data

How the results depend on the processing

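Over 754 refitted values of single helicases, none that was called changed sign, 74 fell out of the calls and 25 entered them, and 40 that passed in neither setting changed sign. These totals take in the replicate block and every fit with 1 library left out. They include ratio calls that were not counted above. On coding reads, edgeR called 12 helicases higher (900 of all genes), quantile normalization called 2 lower (694), and the replicate block called 7 lower (1175). Coding calls with 1 library left out are described above for the called helicases and are not counted again here. The nucleolar median log2 change moved to 0.77 with TMM factors, 0.87 with quantile normalization, 0.77 with edgeR and 0.79 with DESeq2, and the splicing median to 0.20, 0.30, 0.20 and 0.21 in that order. The cytoplasmic median was -0.062 with quantile normalization. With 1 library left out these medians ran from 0.47 to 0.75, from 0.039 to 0.16 and from -0.47 to -0.066. On the 5' UTR without a filter on low values, 15 of 34 helicases were higher and 0 lower, against 1247 and 62 of all 4878 genes. That fit takes in the leaders at 1 read in both controls. With a minimum mean of 50, 2 of 5 helicases were higher, against 219 of 372 genes. With TMM factors 0 were lower (21 of all genes tested), and with quantile normalization 3 were higher (452 of all genes tested). With 1 library left out 0 to 10 were higher and 0 to 1 lower. The ratio was called higher in 0 helicases with quantile normalization, and its counts with 1 library left out are not given either. The replicate numbers share no stated origin. Deviations of same-numbered libraries correlated at 0.26 over coding values and -0.061 over 5' UTR values, so the block is given here alone. It called 746 genes higher and 1175 lower on coding reads. The block raised the helicases with a higher 5' UTR from 8 to 9 of 12, and all genes from 924 to 1171 of 2101. It raised those with a higher ratio from 4 to 6 of 12, and all genes from 370 to 841 of 1907. Calls thus rose among all genes too, and the helicase counts support nothing further. The ratio has no count test. The log2 values of opposite sign were as follows. With TMM factors Ddx10 0.0054, Ddx23 0.067, Ddx59 0.084 (coding). With quantile normalization Ddx23 0.22, Ddx59 0.027 (coding) and Dhx38 -0.10, Dhx9 -0.56 (5' UTR) and Ddx39 -0.21, Ddx39b -0.26, Ddx3x -0.056, Dhx38 -0.61, Dhx9 -0.21 (ratio). With 1 read subtracted Ddx55 -0.019 (coding). With edgeR Ddx23 0.062, Ddx59 0.039 (coding) and Ddx39b -0.15, Dhx38 -0.18, Dhx9 -0.55 (5' UTR). With DESeq2 Ddx23 0.067, Ddx59 0.094 (coding) and Ddx39b -0.19, Dhx38 -0.22, Dhx9 -0.59 (5' UTR). With 1 library left out, the log2 changes that crossed 0 ran as follows: Ddx46 from -0.14 to 0.19 (coding), Ddx50 from -0.20 to 0.28 (coding), Dhx8 from -0.14 to 0.18 (coding), Ddx28 from -0.25 to 0.77 (coding), Ddx39b from -0.32 to 0.35 (coding), Ddx3x from -0.030 to 0.38 (coding), Ddx52 from -0.053 to 0.38 (coding), Ddx55 from -0.24 to 0.27 (coding), Ddx59 from -0.34 to 0.17 (coding), Dhx9 from -0.22 to 1.23 (5' UTR), Ddx6 from -1.26 to 0.83 (ratio). In the controls 13 helicase leaders stood at the lowest value of 1 read, which limits what can be said of them at this depth.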
